A study of Mus musculus with 4 samples.

Results

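The genes described here encode carriers of amino acids in 6 solute carrier families, SLC1, SLC3, SLC7, SLC36, SLC38 and SLC43. They were taken by symbol from the array, where 41 of 19938 genes matched the family pattern, with Slc7a2 and Slc7a11 left out by name. Of the 41, 40 are carrier genes or their partner subunits. The other is Slc7a6os, which lies next to Slc7a6 and encodes no transporter, and its values are given apart. Slc43a3 belongs to its family by sequence, but the human protein is known as a carrier of purine nucleobases, so the label "amino acid transporter" holds for it by family only.

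Macrophages take up and exchange amino acids through a small set of membrane carriers. SLC7 light chains reach the surface bound to a heavy chain of the SLC3 family and swap one amino acid for another, SLC1 and SLC38 carriers use the sodium gradient, and several SLC36 and SLC38 members sit on the lysosome, where amino acid supply is sensed by the kinase complex mTORC1. Arginine is of particular interest in macrophages, because interferon-γ-activated cells turn it into nitric oxide and interleukin-4-activated cells turn it into ornithine and urea.

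The study asked whether M1 and M2 macrophages differ in their response to interleukin-1α (IL-1α), an inflammatory cytokine. All cells were grown from bone marrow of C57BL/6N mice in 10 ng/mL M-CSF and harvested on day 9. M1 cells were stimulated for 48 h with 10 ng/mL interferon-γ and M2 cells for 48 h with 20 ng/mL interleukin-4, and each phenotype was incubated for 24 h with or without 10 ng/mL IL-1α. This gives 4 groups with 1 single-colour Affymetrix array each, that is M1 and M2 with vehicle and M1 and M2 with IL-1α. No genetic change is named in the labels. The age of the mice, the number of animals behind a sample, the order of polarisation and IL-1α, and whether samples came from separate cultures are not stated. An unstimulated macrophage group was not analysed here, so a difference between M1 and M2 has no neutral reference.

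Levels are RMA log2 signals, for which 1 unit is a 2-fold step, and no level or difference has a standard deviation, because no group has a replicate. A floor was set at a log2 signal of 7.617, the median of all genes. A probe set below it is not shown to be above background. The 11 macrophage core markers measured all reached the floor on at least 1 array, although Aif1 read under it on both M2 arrays (7.05 and 6.99). Their levels were not all alike in M1 and M2. With vehicle 3 of the 11 were at least 2-fold lower in M2, and with IL-1α 4 were, beside 6.83% and 6.06% of all genes. In either case 0 were 2-fold higher. Their mean log2 signal was 12.72 and 12.73 in M1 (vehicle and IL-1α) and 11.96 and 11.96 in M2. The measured T cell, B cell and erythroid markers (3, 3 and 2 genes) read under the floor on all 4 arrays. Of 6 stromal markers 3 reached the floor on at least 1 array, and of 4 mast cell markers 1 did. Across all probe sets, arrays of different phenotypes correlated at 0.9617 to 0.9658, and the arrays within the M1 and M2 pairs at 0.9969 and 0.9958.

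Of the 41 genes, 19 reached the floor on at least 1 array, 18 of them on all 4 and Slc1a2 on the M1 arrays only. The other 22 read between 4.19 and 7.55 and are given at the end. Between the vehicle arrays, 3 of the 19 differed by at least 2-fold, which is 15.8% of them, beside 13.9% of all 10489 genes tested. Slc1a5 was higher in M2 (7.03% of all genes were), and Slc7a7 and Slc7a8 were lower (6.83% of all genes). The share of transporter genes past 2-fold was thus near that of all genes. The median size of the difference, regardless of sign, was larger, at 0.51 over the 19 genes and 0.30 over all genes (0.51 and 0.31 with IL-1α). The part of signal level in this was not tested. The median difference of the 19 genes, M2 minus M1, was -0.10 (0.01 over all genes), with 9 genes above 0 and 10 below.

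Upstream sequences are shown for Slc7a7 and Slc7a8, which were lower in M2 past 2-fold and code for light chains that pair with the same heavy chain. No upstream sequence was at hand for Slc1a5, the gene higher in M2 past 2-fold, so it was not searched. The letters are RefSeq sequence of build GRCm38.p6, given 5′ to 3′ for 250 bases before the transcript start that lies farthest upstream. That stretch is chr14:54417945-54418194 for Slc7a7 and chr14:54781887-54782136 for Slc7a8, both on the minus strand. Capitals mark a match to TGATGNAA, the letters of the amino acid response element bound by ATF4 with a C/EBP protein.
Slc7a7: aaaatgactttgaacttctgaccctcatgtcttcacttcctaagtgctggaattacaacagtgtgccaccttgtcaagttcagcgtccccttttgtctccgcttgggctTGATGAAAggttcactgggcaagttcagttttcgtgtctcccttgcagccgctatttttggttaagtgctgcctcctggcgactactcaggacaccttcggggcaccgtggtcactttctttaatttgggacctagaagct
Slc7a8: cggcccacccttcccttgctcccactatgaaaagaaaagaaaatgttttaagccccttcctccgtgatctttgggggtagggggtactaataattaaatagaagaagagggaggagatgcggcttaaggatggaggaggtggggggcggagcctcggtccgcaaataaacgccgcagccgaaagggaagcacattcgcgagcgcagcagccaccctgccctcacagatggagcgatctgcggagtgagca

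Both strands were searched for 3 motifs, which did not overlap one another in these stretches. They were TGATGNAA, the interferon-γ activated site TTCNNNGAA and the E-box CACGTG. Upstream sequence was at hand for 15 of the 19 genes at the floor. TGATGNAA occurred in 1 of the 15, Slc7a7, and in 3.91% of 27025 genes over all their starts. TTCNNNGAA occurred in 2, Slc38a9 and Slc7a1 (8.13% of all genes), and CACGTG in Slc36a1 and Slc38a7 (6.86%). The stretch of Slc7a8 held none of the 3. A gene counted if the stretch before any of its starts held a match, and Slc7a7 had 5 such stretches and Slc7a8 had 1. These matches describe letters in a short window and show no binding.

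Among the sodium-dependent exchangers of neutral amino acids, Slc1a5 showed the largest difference of all 19 genes. It encodes ASCT2, an exchanger known for glutamine uptake. Slc1a5 read 8.51 in M1 with vehicle, 8.35 in M1 with IL-1α, 11.24 in M2 with vehicle and 11.27 in M2 with IL-1α. Both M2 arrays lay far above both M1 arrays, and all 4 lay above the floor. The difference was 2.73 between the vehicle arrays (6.64-fold) and 2.92 between the IL-1α arrays (7.57-fold). Its relative Slc1a4, which encodes ASCT1, an exchanger of alanine, serine and cysteine, read 7.12 to 7.55, under the floor on every array.

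The phenotype difference was tested with limma, in an additive model of phenotype and treatment fitted to all 10625 genes at the floor. The model sets the M2 minus M1 difference common to vehicle and IL-1α against the departure from additivity, with 1 residual degree of freedom per gene and 10.05 borrowed across genes. Its p-values therefore measure no spread between cultures or animals. It called 18 of the 19 genes, 9 higher and 9 lower in M2, where it called 62.5% of all genes tested (33.2% higher and 29.3% lower), and Slc7a6os was the one not called. The 18 called genes were also those whose M1 and M2 arrays did not overlap, as was so for 81.4% of all genes at the floor. The median signal of the 19 genes was 10.17, against 9.50 for all genes at the floor, and the part of brightness in their share of calls was not tested. For Slc1a5 the effect was 2.83 ± 0.08 (SE), with a limma adjusted p of 5.41e-11.

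**Figure D1:**
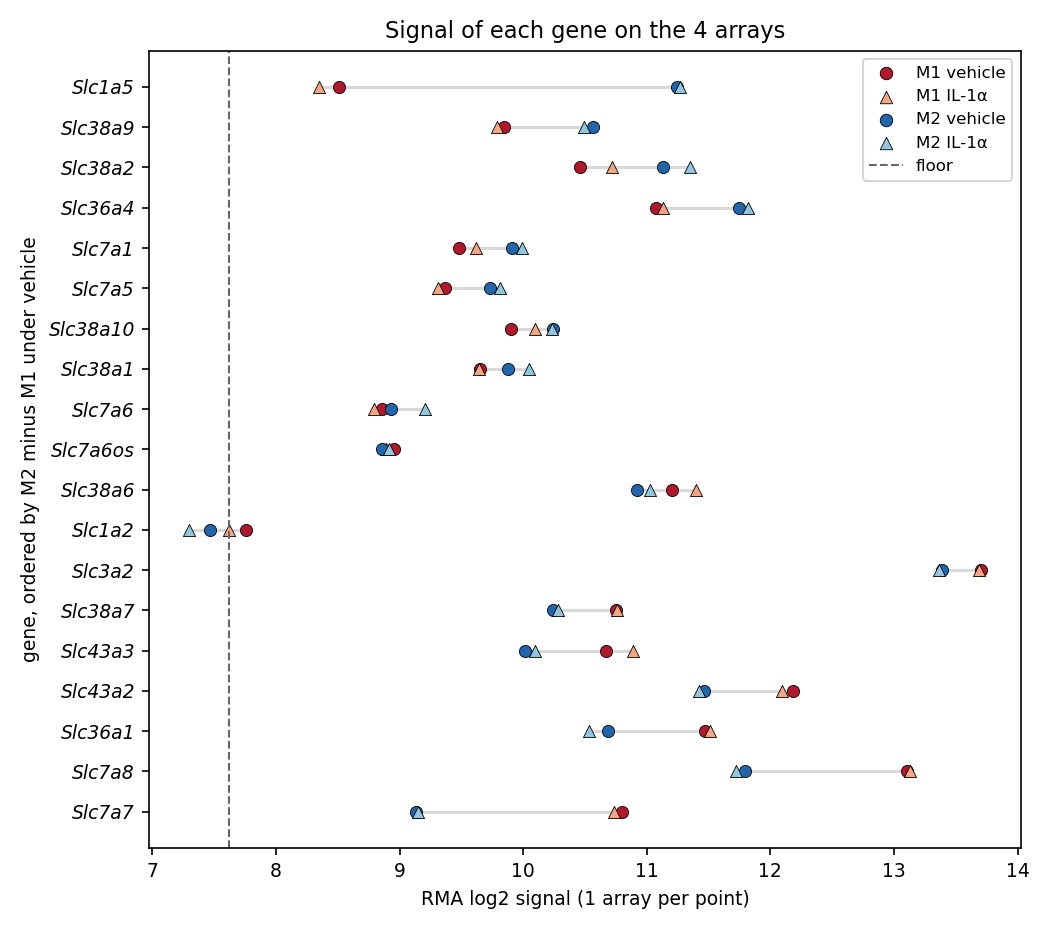
RMA log2 signal (x axis) of the 19 genes that reached the floor (dashed line, 7.617), 1 point per array, with genes ordered by M2 minus M1 under vehicle. Circles are vehicle and triangles IL-1α arrays, red for M1 and blue for M2. Points of one phenotype sit close together, and Slc1a5, Slc7a7 and Slc7a8 have the widest gaps between phenotypes. Positions of different genes cannot be compared, since each probe set has its own brightness.

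The heteromeric exchangers split by light chain. Slc7a7 encodes y+LAT1, which exports arginine and lysine in exchange for neutral amino acids and sodium, and whose loss in humans causes lysinuric protein intolerance. It read 10.80 and 10.74 in M1 (vehicle and IL-1α) and 9.13 and 9.15 in M2. Both M2 arrays lay below both M1 arrays, by 1.67 under vehicle (3.19-fold) and 1.59 under IL-1α (3.01-fold). The limma effect was -1.63 ± 0.07 (adjusted p = 3.38e-09).

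Slc7a8 encodes LAT2, an exchanger of neutral amino acids of broad range. It read 13.11 and 13.13 in M1 and 11.79 and 11.72 in M2. M1 was thus 2.49-fold higher with vehicle and 2.65-fold higher with IL-1α, and the limma effect was -1.36 ± 0.05 (adjusted p = 5.43e-10). The other light chains at the floor were higher in M2 instead.

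Slc7a5 encodes LAT1, the exchanger of large neutral amino acids such as leucine. Its signals were 9.36 and 9.31 in M1 and 9.73 and 9.81 in M2, a limma effect of 0.44 ± 0.08 (adjusted p = 5.27e-04). Slc7a6 encodes y+LAT2, which shares the substrates of y+LAT1, and it read 8.85 and 8.79 in M1 and 8.93 and 9.20 in M2. The gap of 0.08 between its vehicle arrays was smaller than the 0.27 between its M2 arrays, and its call was the weakest of the 18 (0.25 ± 0.10, limma adjusted p = 0.0485). That call was lost under 5 of the alternatives tried, where the adjusted p ran from 0.052 to 0.0935, and under a higher floor the gene was not tested.

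The heavy chain that these light chains share, 4F2hc or CD98, is encoded by Slc3a2. It read 13.70 and 13.68 in M1 and 13.39 and 13.37 in M2, within 0.02 of its partner in each pair. The limma effect was -0.32 ± 0.04 (adjusted p = 2.49e-05). Its signal in M1 lay within 1 log2 unit of the highest signal of any probe set (14.47), where the size of a difference is less certain. Slc3a1, the heavy chain of the kidney and gut system for cystine, read 6.34 to 6.61.

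Of the cationic amino acid transporters, only Slc7a1 reached the floor. It encodes CAT1, a widely expressed carrier of arginine and lysine, and read 9.48 and 9.62 in M1 and 9.91 and 9.99 in M2. The limma effect was 0.41 ± 0.08 (adjusted p = 6.17e-04), well under 2-fold. Its relative Slc7a2, left out by the rule, read 11.94 and 12.20 in M1 and 12.71 and 12.92 in M2. Slc7a11, the cystine and glutamate exchanger that the rule also left out, read 11.00 and 11.30 in M1 and 10.39 and 11.01 in M2.

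**Figure D2:**
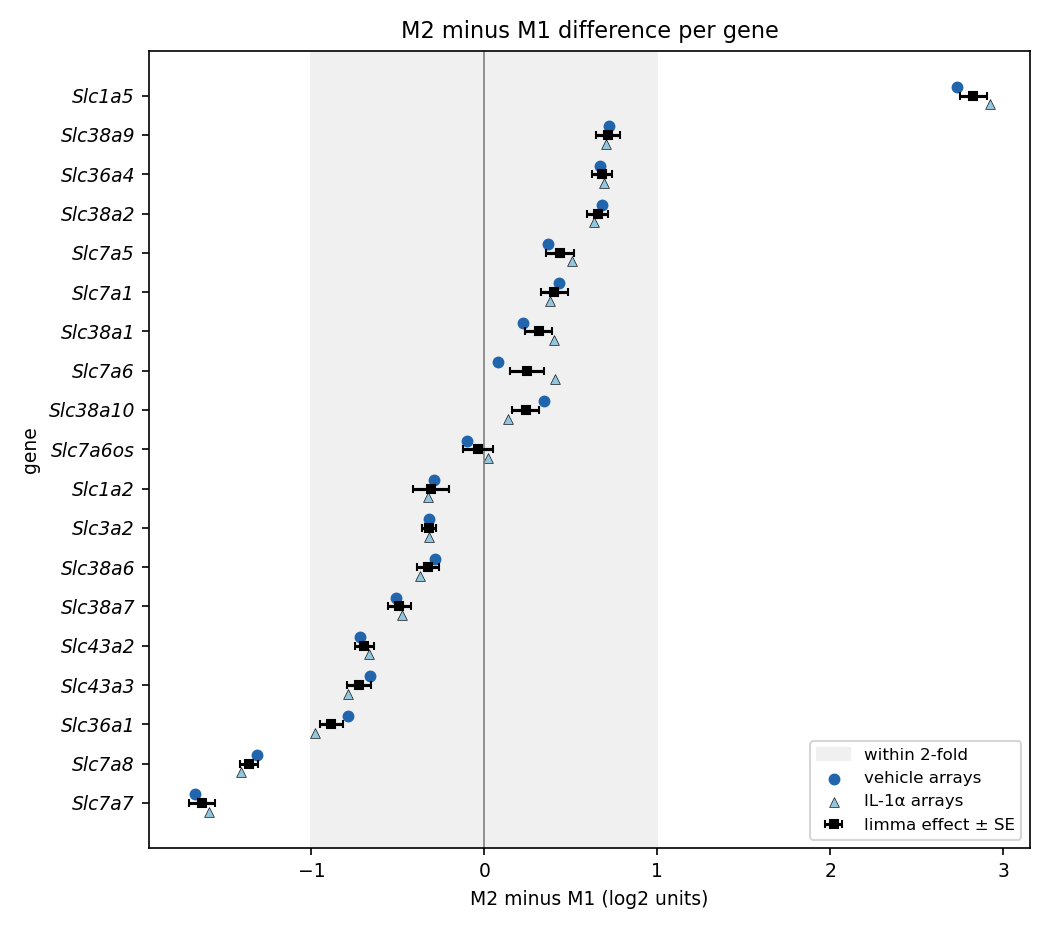
M2 minus M1 difference in log2 units (x axis) for the 19 genes, from the vehicle arrays (circles), from the IL-1α arrays (triangles) and as the limma effect with its standard error (squares and bars). The grey band holds differences under 2-fold. Slc1a5 stands at 2.83 on the right and Slc7a7 and Slc7a8 at -1.63 and -1.36 on the left, and the other 16 genes lie inside the band in all 3 measures.

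The sodium-coupled SLC38 carriers of the plasma membrane were higher in M2 where they could be read. Slc38a2 encodes SNAT2, a carrier of small neutral amino acids whose gene is known to respond to amino acid shortage. It read 10.46 in M1 with vehicle, 10.72 in M1 with IL-1α, 11.14 in M2 with vehicle and 11.35 in M2 with IL-1α. Both M2 arrays lay above both M1 arrays, with a limma phenotype effect of 0.65 ± 0.06 (adjusted p = 2.74e-06). Slc38a1, which encodes the glutamine carrier SNAT1, read 9.65 and 9.64 in M1 and 9.88 and 10.05 in M2. Its effect was 0.31 ± 0.08 (limma adjusted p = 0.00478), but its pair of probe sets differed in size, at 0.35 and 0.10 between the vehicle arrays. With the brighter probe set alone the adjusted p was 0.169. Slc38a3, Slc38a4 and Slc38a5 were under the floor.

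The lysosomal and the less known SLC38 members lay on both sides. Slc38a9, a lysosomal carrier through which arginine is sensed by mTORC1, read 9.84 and 9.79 in M1 and 10.57 and 10.49 in M2 (limma effect 0.71 ± 0.07, adjusted p = 3.49e-06). Its pair of probe sets gave 0.76 and 0.68 between the vehicle arrays. Slc38a7, which encodes the lysosomal glutamine exporter SNAT7, went the other way, with 10.75 and 10.76 in M1 and 10.24 and 10.28 in M2 (-0.49 ± 0.07, limma adjusted p = 5.28e-05). The less studied Slc38a6 read 11.20 and 11.40 in M1 and 10.92 and 11.03 in M2, with the M2 arrays lower (-0.33 ± 0.06, limma adjusted p = 6.62e-04). Slc38a10, also little studied, read 9.90 and 10.09 in M1 and 10.24 and 10.23 in M2, with the M2 arrays higher (0.24 ± 0.08, limma adjusted p = 0.0183).

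The SLC36 family also split. Slc36a1 encodes PAT1, a proton-coupled carrier of small amino acids found on lysosomes. It read 11.47 and 11.51 in M1 and 10.69 and 10.53 in M2, so that the gap was -0.79 with vehicle and -0.98 with IL-1α. The second value lies just inside the 2-fold line, and it was -1.04 when each array was centred by loess. The limma effect was -0.88 ± 0.07 (adjusted p = 3.67e-07). Slc36a4, which encodes the related carrier PAT4, read 11.08 and 11.13 in M1 and 11.74 and 11.82 in M2 (0.68 ± 0.06, limma adjusted p = 8.79e-07).

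Both SLC43 genes at the floor were lower in M2. Slc43a2 encodes LAT4, a carrier that lets essential neutral amino acids leave the cell by facilitated diffusion, and read 12.18 and 12.09 in M1 and 11.46 and 11.42 in M2 (-0.69 ± 0.05, limma adjusted p = 4.66e-07). Slc43a3 read 10.67 and 10.89 in M1 and 10.01 and 10.10 in M2 (-0.73 ± 0.07, limma adjusted p = 3.07e-06). The glutamate transporter gene Slc1a2 read 7.76 and 7.62 in M1 and 7.47 and 7.30 in M2. Its limma call (-0.31 ± 0.10, adjusted p = 0.0226) rests on signals at or under the floor. Slc7a6os read 8.95 and 8.89 in M1 and 8.86 and 8.91 in M2, so that the phenotypes overlapped, with a limma effect of -0.04 ± 0.09.

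The pattern between phenotypes was almost the same with and without IL-1α, on arrays that these comparisons do not share. Whether the vehicle and IL-1α samples came from separate cultures is not stated, so the 2 pairs of arrays are not shown to be independent. Between the IL-1α arrays, Slc1a5 was again higher by at least 2-fold and Slc7a7 and Slc7a8 lower, beside 14.2% of all 10479 genes past 2-fold (8.15% higher and 6.06% lower). Of the 19 genes, 18 had the same sign of M2 minus M1 under vehicle and under IL-1α, and the exception was Slc7a6os (-0.10 and 0.02). At 1.5-fold, 9 of the 19 genes differed on either pair of arrays, 4 higher and 5 lower in M2. Over all genes, 27.4% differed with vehicle and 28% with IL-1α. The added genes were Slc38a9, Slc38a2 and Slc36a4 upward and Slc36a1, Slc43a2 and Slc43a3 downward, on both pairs.

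Genes listed as markers of osteoclasts, neutrophils and dendritic cells differed between M1 and M2 too, and their part in the transporter differences was not tested. The summed linear signal of 5 osteoclast markers was 2512 and 2532 in M1 and 11074 and 11582 in M2, with 4 of the 5 higher in M2 by limma and Calcr under the floor throughout. That of 8 neutrophil markers was 964 and 1005 in M1 and 2142 to 2269 in M2, with 5 called higher and Camp, Elane and Ly6g under the floor. That of 6 dendritic cell markers was 2001 to 2343 in M1 and 742 to 770 in M2, with 3 called lower, 1 higher, and Flt3 and Itgae under the floor. Of the stromal markers 1 was called higher, and of the mast cell markers 1 was called lower. Beside these counts, limma called 33.2% of all genes tested higher in M2 and 29.3% lower. In RNA from a whole culture, fewer cells of a type and less RNA per cell cannot be told apart.

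IL-1α left the transporter genes close to their vehicle levels in both phenotypes. In M1, 0 of 19 genes differed by 2-fold, beside 0% of all 10012 genes tested, and the differences ran from -0.16 (Slc1a5) to 0.26 (Slc38a2), with a median of -0.01. In M2, 0 of the 18 genes tested differed by 2-fold, beside 0.35% of 10284 genes, all of them upward. The differences there ran from -0.16 (Slc36a1) to 0.27 (Slc7a6), with a median of 0.05, equal to the 0.05 of all genes. At 1.5-fold the count was 0 in each phenotype as well, beside 0.0599% of all genes in M1 and 0.875% in M2.

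The sign of the IL-1α difference was not always the same in M1 and M2. Of the 19, 6 were above their vehicle level in both phenotypes, 4 were below it in both, and 9 had opposite signs. Slc38a2 was above it in both, by 0.26 in M1 and 0.21 in M2. Slc38a6 was above by 0.20 and 0.11, Slc43a3 by 0.22 and 0.09, and Slc7a1 by 0.14 and 0.08. Slc7a6 was 0.06 below in M1 and 0.27 above in M2, and Slc38a1 was 0.01 below and 0.17 above. Slc38a7, counted among the 6 (0.01 and 0.04), turned sign in M2 with loess centring (-0.02) and with quantile normalization (-0.03). Slc1a2, counted among the 4, read under the floor on both M2 arrays.

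In limma, 0 of the 19 genes passed for a treatment effect shared by the phenotypes, beside 0% of all 10625 genes. At an unadjusted p under 0.05 there were 2, Slc38a2 and Slc38a6, both upward, beside 6.08% of all genes. The smallest limma adjusted p among the 19 was 0.51, for Slc38a2 (0.24 ± 0.06 SE).

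**Figure D3:**
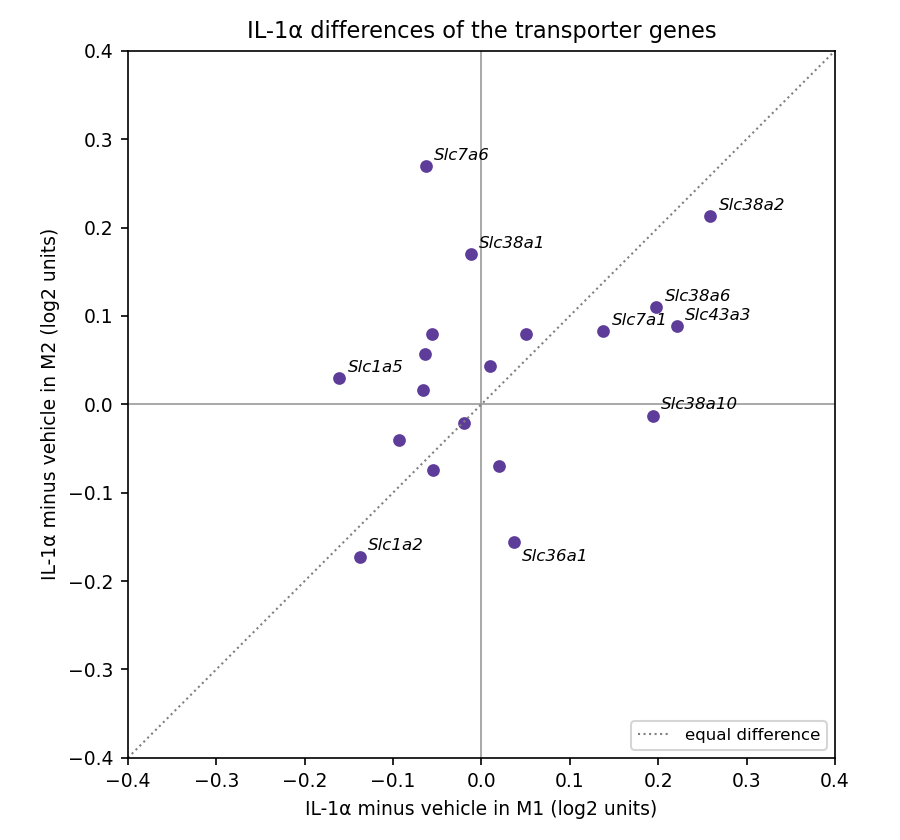
IL-1α minus vehicle in M1 (x axis) and in M2 (y axis), in log2 units, for the 19 genes; each point is 1 gene from 2 pairs of single arrays, and the dotted line marks equal differences. All points lie within 0.27 of 0 on both axes, far inside the 2-fold distance of 1, with Slc38a2 to the upper right and Slc7a6 highest on the y axis.

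The contrast that the study design names is how far the response in M2 exceeded that in M1. It reached 2-fold in 0 of the 19 genes, beside 0.32% of 10625, and ran from -0.21 (Slc38a10) to 0.33 (Slc7a6). Its median was 0.00, against 0.06 over all genes. With 4 arrays this contrast leaves no degree of freedom for a test.

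Other genes of amino acid use were read from 5 lists, to place the transporters beside the enzymes and sensors they serve. Of 25 measured genes listed under amino acid transport in other families, 17 were at the floor. With vehicle, 2 were at least 2-fold higher and 5 at least 2-fold lower in M2 (median -0.22), and the same numbers were found with IL-1α. For this and the lists that follow, the shares over all genes were 7.03% higher and 6.83% lower with vehicle and 8.15% and 6.06% with IL-1α. Slc6a19, which encodes the neutral amino acid carrier B0AT1 of gut and kidney, read 10.81 in M1 and 6.09 in M2 with vehicle, the largest difference of the list, and the M2 value lies under the floor. The mitochondrial aspartate and glutamate carriers went in opposite directions, with Slc25a13 at 2.05 and Slc25a12 at -1.02. The mitochondrial glutamate carrier Slc25a22 was at -1.43 and the aromatic amino acid carrier Slc16a10 at -1.19. Beside Slc25a13, the gene counted as higher was Slc17a9 (1.17), which read under the floor in M1. Slc17a9, known as a carrier of nucleotides, and Slc6a8, known as a carrier of creatine, are on this list by family only.

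Among 25 measured amino acid metabolising enzymes, 18 were at the floor, of which 2 were at least 2-fold higher and 3 lower in M2 with vehicle (median 0.07), and again 2 and 3 with IL-1α. Arginase, encoded by Arg1, was at 5.72 (M2 minus M1) and nitric oxide synthase, encoded by Nos2, at -6.21, each under the floor in the phenotype with less of it. Glutamine synthetase, encoded by Glul, read 10.20 and 10.02 in M1 and 11.78 and 11.72 in M2, a 3.00-fold difference with vehicle. The kynureninase gene Kynu (-4.74) and the glutathione synthesis gene Gclm (-1.27) were lower in M2. Kynu read 6.52 and 7.59 in M2 without and with IL-1α, both under the floor.

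Of 25 genes of the amino acid response, 22 were at the floor, with 1 at least 2-fold higher and 5 lower in M2 with vehicle (median -0.12), and 3 higher and 3 lower with IL-1α (median -0.13). The stress-induced Nupr1 was at -3.27, Ddit3, which encodes the factor CHOP, at -1.19, Mthfd2 at -1.10 and Gpt2 at 1.34 between the vehicle arrays. limma called 7 of the 22 higher and 10 lower, where it called 33.2% of all genes higher and 29.3% lower. The response factor gene Atf4 read 10.04 and 10.11 in M1 and 9.46 and 9.70 in M2, and its target Asns 10.72 and 10.81 in M1 and 10.61 and 10.79 in M2.

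Of 27 measured genes of lysosomal sensing and mTORC1, 26 were at the floor, and 2 were at least 2-fold higher and 0 lower in M2 (median 0.02 with vehicle), on either pair of arrays. Those were the sestrin gene Sesn1 (2.23), whose product restrains mTORC1, and the Rag GTPase gene Rragd (1.11), and Fnip2 was at -0.89. None of 18 aminoacyl-tRNA synthetase genes differed by 2-fold on either pair (median 0.04 with vehicle), with Iars at 0.99 and Wars at -0.98. With IL-1α in M2, 0 genes of the 5 lists with an M2 array at the floor passed 2-fold, beside 0.35% of all genes. Among genes with an M2 array at the floor, the largest difference of each list in M2 was 0.42 in Cebpb of the amino acid response, 0.24 in Castor1 of the mTORC1 list, 0.20 in Slc16a10 of the other transporters, 0.18 in Tars of the synthetases and 0.22 in Odc1 of the enzymes. In the contrast of the responses, M2 minus M1, 1 gene of the 5 lists passed 2-fold, beside 0.32% of all genes. It was Kynu (1.04), whose M2 signals both lay under the floor, so the size is uncertain.

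**Figure D4:**
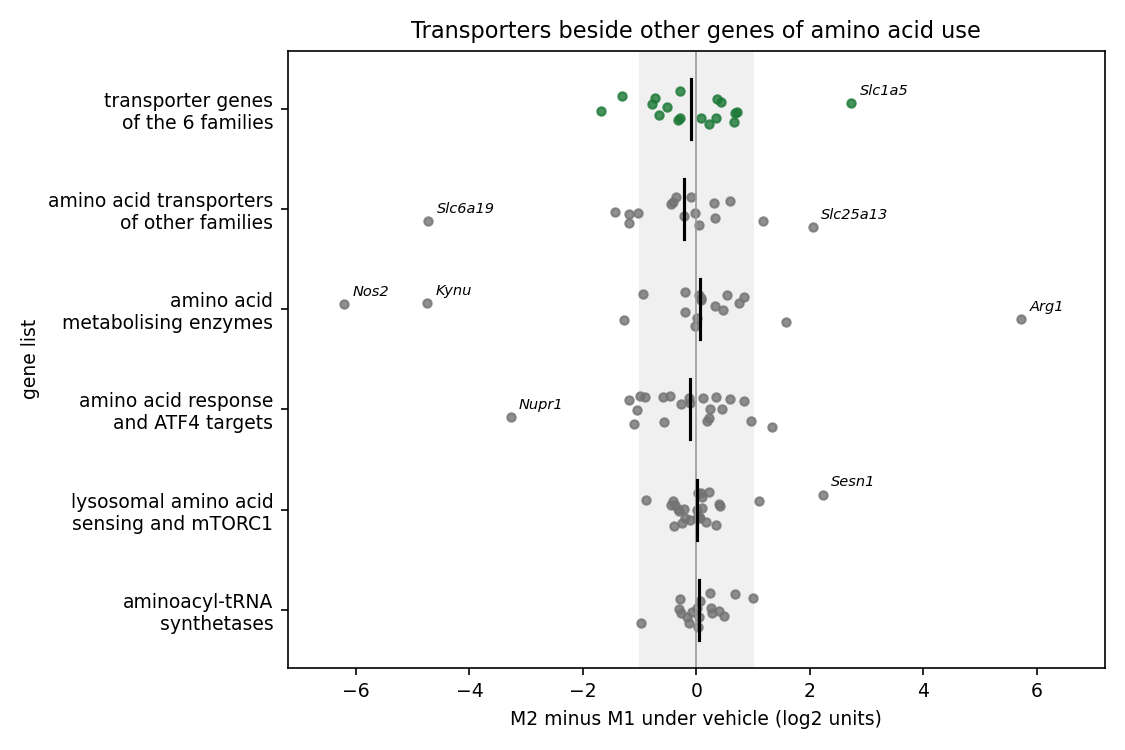
M2 minus M1 under vehicle in log2 units (x axis) for genes at the floor, by list, 1 point per gene with vertical scatter for legibility only; black bars are medians, the grey band holds differences under 2-fold, and genes past 2 log2 units are named. The 18 transporter genes of the 6 families have a median of -0.10, and Slc1a5 is the single one of them past 2 units.

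The 22 genes under the floor on all 4 arrays are not shown to be expressed. They were the glutamate transporter genes Slc1a1, Slc1a3, Slc1a6 and Slc1a7, the exchanger gene Slc1a4, the heavy chain Slc3a1 and the light chains Slc7a9, Slc7a10, Slc7a12, Slc7a13 and Slc7a15. With them were Slc7a3, Slc7a4 and Slc7a14 of the cationic group, Slc36a2 and Slc36a3, Slc38a3, Slc38a4, Slc38a5, Slc38a8 and Slc38a11, and Slc43a1. Their M2 minus M1 differences with vehicle ran from -0.29 to 0.72, the highest in Slc36a2, and no IL-1α difference exceeded 0.45 in size.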

How the data were processed

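Gene expression was measured in 4 samples on 1 array each, grouped by source name. Per the submitters' processing notes, the authors used RMA and Affymetrix Expression Console, and the deposited table holds 1 log2 signal per probe set and array. Versions, settings and genome build are not given in the sources used here. The log base was read from the range of the values. RMA in general subtracts background and sets arrays to a common distribution, which removes global differences and compresses those of dim probe sets. Precision is limited by the number of arrays.

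Of 35556 rows, 21789 had 1 gene in the platform annotation of GEO, 1621 several and 12146 none, and the last 2 kinds were left out. Symbols were updated through Entrez numbers (21698 matched a RefSeq table of GRCm38.p6), and probe sets of a gene were averaged, so 43 probe sets gave the 41 genes. A gene was counted as different at 2-fold with at least 1 compared array at the floor. The tests are from limma 3.58.1 in R 4.3.3 (lmFit, eBayes with a trend, Benjamini-Hochberg over 10625 genes, threshold 0.05), tested on simulated data. Genes at the floor are named with all values, and from each list up to 6 genes by the vehicle difference and up to 3 by the IL-1α difference in M2. Atf4, Asns, Slc25a12, Slc17a9 and Slc6a8 were named after their values were seen. The genes and lists were chosen with earlier results of these data known.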

Additional observations from a re-analysis of the deposited data

Results flagged for a closer look

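With 1 pair of arrays per phenotype, 9 of the 19 genes had an IL-1α difference above 0 in one phenotype and below 0 in the other. The difference between the phenotypes was not tested, because the design leaves no degree of freedom for it. The response difference, M2 minus M1, was 0.33 for Slc7a6, 0.19 for Slc1a5, 0.18 for Slc38a1, 0.14 for Slc7a5, 0.12 for Slc7a6os and 0.0825 for Slc7a7. It was -0.21 for Slc38a10, -0.19 for Slc36a1 and -0.0898 for Slc7a8. Under another scaling of the arrays the sign in M2 turned for Slc1a5 (-0.04 with loess centring), Slc7a7 (-0.05 with loess centring), Slc7a5 (-0.02 with quantile normalization) and Slc7a6os (-0.04 with quantile normalization). With the brighter probe set, the sign in M1 turned for Slc38a1 (0.01).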

How the results depend on the processing

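No paired analysis was possible because each group holds 1 array and the labels give no replicate number. For the same reason no replicate could be left out. With a 1.5-fold threshold the count of transporter genes that differed between M2 and M1 went from 3 to 9 with vehicle and from 3 to 9 with IL-1α. Omitting the floor, raising it to the 75th percentile (9.635), a further quantile normalization, the brightest probe set and leaving out Slc7a6os gave 3 in each, and loess centring 3 and 4. The IL-1α counts stayed at 0 under every alternative run. The limma phenotype calls, 18 as reported, ranged from 16 to 19. Slc7a6 lost its call in 5 settings and Slc38a1 in 1, and without a floor Slc36a2 and Slc7a4 were called. Of 171 differences of single genes recomputed under another scaling or probe set rule, 10 changed sign, all of them IL-1α differences of at most 0.08 in size. Signals near the floor, such as those of Slc1a2, and the single array per group limit what can be read.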

Other observations

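Several of the genes lie next to each other in the RefSeq annotation of GRCm38.p6, and neighbours did not always have like values. Slc38a1, Slc38a2 and Slc38a4 follow each other on chromosome 15 with no protein-coding gene between. Slc38a2 differed by 0.68 and Slc38a1 by 0.22 between the vehicle arrays (M2 minus M1), whereas Slc38a4 read under the floor throughout. On chromosome 11, Slc36a1 (-0.79) lies beside Slc36a2 and Slc36a3, which were both under the floor. On chromosome 2, Slc43a3 (-0.66) and Slc43a1, under the floor, have 1 protein-coding gene between them, Rtn4rl2. Slc7a6 (0.08) and Slc7a6os (-0.10) are neighbours on chromosome 8.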
